A study of Homo sapiens with 8 samples.

Results

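The genes described here are the 3 HLA class I heavy chains HLA-B, HLA-C and HLA-E, their shared light chain B2M, the peptide loading genes TAP1, TAP2 and TAPBP, the class I transactivator NLRC5, and CD274, which encodes PD-L1. They were chosen by name, through the GENCODE symbols of the Ensembl identifiers in the count files; the rule uses no measured value, although results of these data were known when it was written. These 9 genes were among 60291 in the files, and all 9 were among the 17811 genes with enough reads to be tested. The libraries came from A549, an established human lung adenocarcinoma line. All groups share its KEAP1 mutation, which inactivates the protein that marks NRF2 for degradation, and NRF2 protein was not measured in these data. NFE2L2, the gene of the transcription factor NRF2, was silenced with siRNA, short RNA duplexes that direct the cleavage of a matching mRNA. Per transfection, 250000 cells received 5 nmol of a duplex with the reagent Lipofectamine RNAiMAX, and RNA was taken at 48 h. There were 3 NFE2L2 siRNA libraries, 1 for each of 3 duplexes, 4 control siRNA libraries, from 2 control duplexes with 2 transfections each, and 1 mock library from cells that received the reagent without siRNA.

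Class I molecules display peptides from inside the cell to CD8 T cells. Proteasome products are carried into the endoplasmic reticulum by the transporter formed by TAP1 and TAP2, tapasin (TAPBP) holds an empty heavy chain and B2M beside that transporter, and the complex leaves for the cell surface once a peptide is bound. HLA-B and HLA-C present to T cells and to receptors of natural killer cells, whereas HLA-E mainly displays signal peptides of other class I chains to the NKG2A receptor. NLRC5 drives transcription of these genes together with the RFX complex, interferon-gamma acts on them through factors such as IRF1, and PD-L1, a ligand that inhibits T cells through PD-1, is induced by the same cytokine. Only RNA was measured here, neither the proteins nor their level at the cell surface.

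The interferon and NF-kB motifs that are known for these promoters are shown first, because several of the genes hold one or the other. RefSeq promoter sequences (GRCh38.p14) were available for 7 of the 9 genes, with 2 starts for TAP1 and 1 for each of the others, and the 250 bases before each start were searched on both strands. Those of HLA-E and NLRC5 were not analysed here. The core of the interferon-stimulated response element (ISRE), the letters GAAANN followed by GAAA, was found for 5 of the 7, namely TAP2, TAP1, TAPBP, CD274 and B2M, and in 3.02% of 35116 promoters in the same table. In the stretches below the capitals mark these matches, which overlap each other where the capitals run on, and each is written 5′ to 3′ on the strand of its gene.
TAP2, chr6:32838763-32838822, minus strand: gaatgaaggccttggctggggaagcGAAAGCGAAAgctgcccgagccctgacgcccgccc
TAP1, chr6:32853801-32853860, minus strand: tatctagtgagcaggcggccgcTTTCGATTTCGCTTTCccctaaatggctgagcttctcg
TAPBP, chr6:33314079-33314120, minus strand: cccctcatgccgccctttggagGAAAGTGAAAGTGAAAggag
CD274, chr9:5450312-5450371, plus strand: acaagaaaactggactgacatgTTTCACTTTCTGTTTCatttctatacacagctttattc
B2M, chr15:44711351-44711410, plus strand: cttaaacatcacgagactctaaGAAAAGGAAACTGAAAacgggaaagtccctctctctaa

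TAP1, TAPBP, CD274 and B2M each held 2 overlapping ISRE core matches and TAP2 held 1. Only the exact letters of the core were searched, so variants of the element, in HLA-B and HLA-C too, were not counted. The heavy chains HLA-B and HLA-C lacked the exact core letters but held a match to the NF-kB consensus, as did B2M, TAP1 and TAPBP, against 5.21% of all promoters. It is shown for HLA-B and HLA-C because the aligned sites of these close relatives differ by a single base.
HLA-B, chr6:31357322-31357381, minus strand: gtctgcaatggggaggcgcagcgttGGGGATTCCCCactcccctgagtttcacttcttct
HLA-C, chr6:31272231-31272290, minus strand: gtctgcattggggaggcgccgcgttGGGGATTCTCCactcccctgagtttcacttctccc

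Counted from the 5′ end of the 11 capitals, with HLA-B first, the difference between both sites is C9T, and the consensus matched the HLA-B site in 2 overlapping positions and the HLA-C site in 1. The interferon-gamma activated site TTCNNNGAA was found for CD274 and at the second start of TAP1 (6.57% of all promoters), and the Y box letters CCAAT for HLA-B, HLA-C, B2M and TAP1 (32% of all promoters). The core of the antioxidant response element, the letters TGACNNNGC to which NRF2 binds with its partners, was found for 0 of the 7 genes and in 10.9% of all promoters. Where a promoter held matches of different motifs, these did not overlap. A match describes letters only, and binding was not measured.

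The silencing itself was seen in every NFE2L2 siRNA library. NFE2L2 fell from 111.6 ± 4.34 CPM (reads per 1000000 gene reads, scaled by TMM; SD, n = 4) with control siRNA to 38.2 ± 12.1 (SD, n = 3), a log2 fold change of −1.55 (standard error 0.18), with an adjusted p of 0.000994 in edgeR's quasi-likelihood test. Its targets NQO1, GCLM, GCLC and TXNRD1, enzymes of the antioxidant response, fell as well, with log2 fold changes from −2.57 to −2.03, and all 5 genes lay below the controls in each NFE2L2 siRNA library. The libraries held 35525141 to 41645410 gene reads. The epithelial markers KRT8 and KRT18 had 111143 to 267462 reads per library, and the leukocyte markers PTPRC and CD3E had at most 3. KRT19 and CDH1, also epithelial, passed 0.05 but not 0.01 (log2 fold changes of 0.88 and 0.74, edgeR adjusted p = 0.02 and 0.0455). Summed fibroblast markers lay at 10.4 to 14.8 CPM with NFE2L2 siRNA and 4.38 to 4.89 CPM with control siRNA, mostly COL1A1 (log2 fold change 1.497, edgeR adjusted p = 0.000493) with PDGFRA (1.76, 0.00382), and summed endothelial markers at 0.615 to 0.987 against 0.215 to 0.305 CPM, mostly CDH5 (1.99, 0.0082). COL1A2, DCN and VWF had at most 5 reads in any library. Summed leukocyte markers lay at 8.57 to 12.2 against 7.03 to 8.65 CPM, mostly CD14 (0.80, 0.0287), while ITGAM, at lower levels, fell (−1.30, 0.00384). The part of these shifts in the values below was not tested, and in bulk RNA fewer cells with a transcript and less of it per cell cannot be told apart.

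None of the 9 genes passed the threshold of 0.01 on the adjusted p between NFE2L2 siRNA and control siRNA, and none passed 0.05. Over all tested genes, 2.76% passed 0.01 (1.39% higher and 1.36% lower) and 8.17% passed 0.05 (4.63% higher and 3.54% lower). The log2 fold change was above 0 for 6 genes and below 0 for 3, with a range of −0.25 for TAP2 to 0.65 for CD274 and a median of 0.18, beside a median of 0.01 over all tested genes. Unadjusted p-values under 0.05 were found for 3 of the 9 genes, TAPBP, NLRC5 and CD274, whereas 25.0% of all tested genes had one. DESeq2 and limma-voom also placed 0 of the 9 past 0.01, where DESeq2 placed 7.38% of all genes, and DESeq2 gave NLRC5 an adjusted p of 0.0216. B2M and NLRC5 were higher in every NFE2L2 siRNA library than in any control library, an arrangement that 11.9% of all tested genes had. No gene of the 9 lay wholly below the controls, as 11.4% of all tested genes did. The 7 others overlapped between the groups. For single genes a two-sided exact permutation test was added, in which the 35 divisions of the 7 libraries allow no p below 0.0571, and thus none under 0.05.

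**Figure D1:**
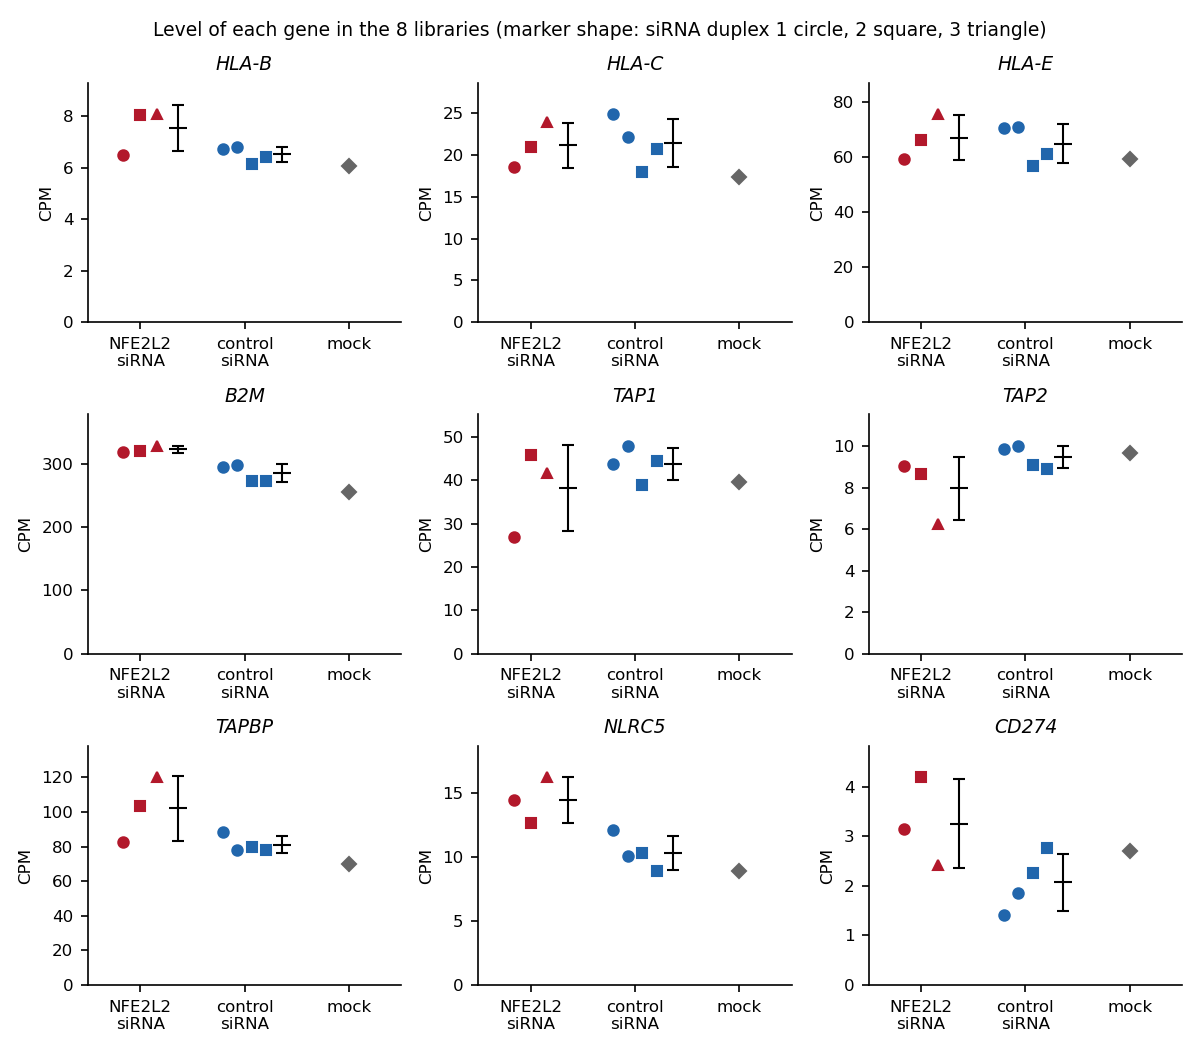
Level of each of the 9 genes in CPM (vertical axes from 0) in the 3 NFE2L2 siRNA libraries, the 4 control siRNA libraries and the mock library. Points are libraries, marker shapes give the siRNA duplex, and bars are mean ± SD; B2M and NLRC5 are the genes whose NFE2L2 siRNA points all lie above the control points.

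Levels were compared between genes per kilobase of the canonical transcript. B2M was by far the most abundant, with 301.7 ± 14.9 CPM per kb (SD, n = 4) in control cells. HLA-E followed with 25.5 ± 2.78 and TAPBP with 23.5 ± 1.48 CPM per kb, then TAP1 with 16.3 ± 1.39 and HLA-C with 13.9 ± 1.88. HLA-B had 4.25 ± 0.19, TAP2 1.68 ± 0.0981, NLRC5 1.53 ± 0.195 and CD274 0.572 ± 0.158 CPM per kb. Neighbours whose ranges of 1 SD overlapped in this order were HLA-E and TAPBP, TAP1 and HLA-C, and TAP2 and NLRC5. With NFE2L2 siRNA the same genes followed in nearly the same order, except that TAPBP (29.6 ± 5.41 CPM per kb; SD, n = 3) came before HLA-E (26.3 ± 3.22), and NLRC5 (2.13 ± 0.265) before TAP2 (1.41 ± 0.271), beyond 1 SD of each for the second pair only. In every group the non-classical chain HLA-E thus had a higher level per length than the classical chains HLA-C and HLA-B, and the light chain exceeded the 3 heavy chains together.

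**Figure D2:**
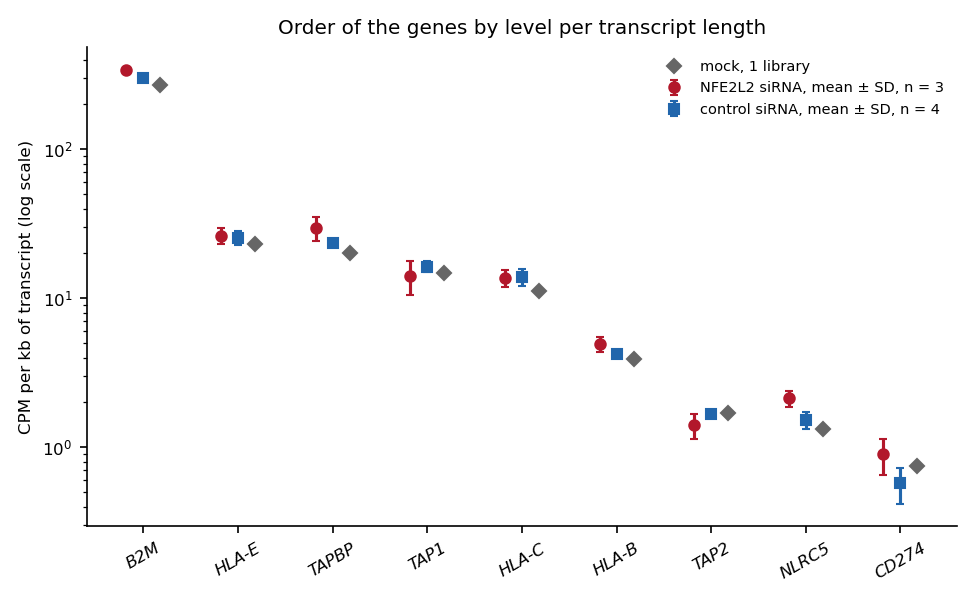
Level per transcript length (CPM per kilobase, log scale) of the 9 genes, ordered by the mean of the control siRNA libraries. Points with bars are mean ± SD for NFE2L2 siRNA (n = 3) and control siRNA (n = 4), diamonds are the mock library; levels run from 302 CPM per kb for B2M to 0.572 for CD274 in control cells.

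HLA-B (ENSG00000234745.5, chromosome 6 from 31321649 to 31334844 on the minus strand; gene positions are GRCh37) is a classical heavy chain. It had 6.51, 8.06 and 8.08 CPM with NFE2L2 duplexes 1, 2 and 3. The control libraries had 6.71 and 6.80 CPM with duplex 1 and 6.16 and 6.42 CPM with duplex 2, and the mock library had 6.06 CPM. NFE2L2 duplexes 2 and 3 thus lay above all controls and duplex 1 among them. This gave a log2 fold change of 0.21 (95% interval −0.07 to 0.49, edgeR adjusted p = 0.326).

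HLA-C (ENSG00000204525.10, chromosome 6 from 31236526 to 31239907, minus strand), the other classical chain, had 18.6, 21.0 and 24.0 CPM in the NFE2L2 siRNA libraries. The control libraries spanned the same range, with 24.9 and 22.2 CPM for duplex 1 and 17.9 and 20.7 CPM for duplex 2, and the mock library had 17.3 CPM. The highest single control library exceeded the lowest by a factor of 1.39, and the highest NFE2L2 siRNA library exceeded the lowest by 1.29. The log2 fold change was −0.02 (95% interval −0.33 to 0.29, edgeR adjusted p = 0.955), and its sign turned with the control duplex, to 0.13 against duplex 2 alone and −0.16 against duplex 1 alone.

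HLA-E (ENSG00000204592.5, chromosome 6 from 30457286 to 30461971, plus strand) had 59.3, 66.3 and 75.7 CPM with NFE2L2 siRNA. Its control values split by duplex as those of HLA-C did, with 70.8 and 71.1 CPM for duplex 1 and 57.0 and 61.1 CPM for duplex 2, and the mock value was 59.3 CPM. Against all controls the log2 fold change was 0.05 (95% interval −0.22 to 0.31, edgeR adjusted p = 0.848), −0.09 against duplex 1 alone and 0.18 against duplex 2 alone. On a linear scale the 95% intervals ran from 0.798-fold to 1.22-fold for HLA-C and from 0.86-fold to 1.24-fold for HLA-E.

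Reads of the heavy chains can be hard to assign, because relatives share sequence. Of all runs of 50 bases in the canonical transcript, 2.56% for HLA-B, 6.76% for HLA-C and 6.16% for HLA-E also occur in another gene, mostly in other class I genes and pseudogenes. With the reads of HLA-B and HLA-C summed, the log2 fold change was 0.04 (standard error 0.13, edgeR adjusted p = 0.883). Reads that were assigned to no gene are absent from this sum. HLA-B had 228 to 344 reads per library and HLA-C 664 to 1020, with canonical transcripts of 1536 and 1542 bases. How well the A549 alleles match the reference used for alignment was not measured, and its part in these levels was not tested.

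B2M (ENSG00000166710.13, chromosome 15 from 45003556 to 45011049, plus strand), the light chain that all class I heavy chains need to fold, had 319, 320 and 328 CPM with NFE2L2 siRNA. Controls had 295 and 298 CPM with duplex 1 and 272 and 273 CPM with duplex 2, and mock cells had 256 CPM. The 3 NFE2L2 siRNA values differed by a factor of 1.03 and lay above all controls, while the mock value lay below them. The log2 fold change was 0.18 (standard error 0.08, 95% interval −0.00 to 0.36, edgeR adjusted p = 0.201), and the exact permutation p was 0.0571. With 9843 to 13971 reads per library, it was also the most deeply covered of the 9 genes.

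TAP1 (ENSG00000168394.9, chromosome 6 from 32812986 to 32821593, minus strand) encodes the first subunit of the peptide transporter. It had 26.9 CPM with NFE2L2 duplex 1 but 45.9 and 41.7 CPM with duplexes 2 and 3. Control values of 43.8, 47.97, 38.9 and 44.5 CPM and a mock value of 39.5 CPM surrounded the latter, so that the library of duplex 1, with 962 reads against 1441 to 1804 in the others, stood alone. Over all 3 duplexes the log2 fold change was −0.20 (95% interval −0.58 to 0.18, edgeR adjusted p = 0.507). It rested on that library: without it the value was −0.00 (adjusted p = 0.993), and without duplex 2 it was −0.37 (adjusted p = 0.187).

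TAP2 (ENSG00000204267.9, chromosome 6 from 32789610 to 32806516, minus strand), the partner in the transporter, behaved otherwise, since the low library was that of duplex 3. The NFE2L2 siRNA values were 9.06, 8.65 and 6.23 CPM, the control values 9.88, 10.03, 9.10 and 8.92 CPM, and the mock value 9.66 CPM. Duplex 1 lay between the lower controls and duplex 2 just below them. On the log2 scale the difference was −0.25 (95% interval −0.58 to 0.08, edgeR adjusted p = 0.322), and −0.10 without duplex 3. A gene with the identifier ENSG00000250264 overlaps TAP2 on the same strand and shares 35.3% of the 50-base runs of the TAP2 transcript, so the counts of TAP2 are uncertain. TAP1 overlaps PSMB9 on the opposite strand, which strand-specific counting separates.

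TAPBP (ENSG00000231925.7, chromosome 6 from 33267471 to 33282061, minus strand), the gene of tapasin, had 82.8, 104 and 120 CPM with NFE2L2 duplexes 1, 2 and 3. The control values were 88.6, 77.9, 79.9 and 78.0 CPM, and mock cells had 70.0 CPM, the lowest value of the 8 libraries. Duplexes 2 and 3 exceeded every control, and duplex 1 lay between the control values. For TAPBP the log2 fold change was 0.33 (95% interval 0.05 to 0.61, edgeR adjusted p = 0.131). It was 0.20 without duplex 3 and 0.46 without duplex 1, where the adjusted p of 0.0202 was the lowest for this gene in any fit and still above 0.01.

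NLRC5 (ENSG00000140853.11, chromosome 16 from 57023397 to 57117443, plus strand), the transactivator of the class I genes, came nearest to the threshold. NFE2L2 siRNA libraries had 14.5, 12.7 and 16.3 CPM, from 518, 498 and 692 reads. Control libraries had 12.1 and 10.1 CPM with duplex 1 and 10.3 and 8.92 CPM with duplex 2, from 322 to 451 reads, and the mock library had 8.94 CPM. The lowest NFE2L2 siRNA value was just above the highest control value, and mock cells lay near the lower end of the controls. The NLRC5 value on the log2 scale was 0.48 (standard error 0.14, 95% interval 0.18 to 0.79), with an unadjusted p of 0.00565 and an adjusted p of 0.06 in edgeR's test and an exact permutation p of 0.0571. Over all alternatives the value stayed between 0.37 and 0.59 and the adjusted p between 0.0216 and 0.292. None of the 50-base runs of NLRC5, B2M or CD274 occur in another gene.

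CD274 (ENSG00000120217.9, chromosome 9 from 5450503 to 5470566, plus strand) was the least abundant of the 9 genes. It had 113, 165 and 103 reads with NFE2L2 siRNA, or 3.16, 4.196 and 2.42 CPM. Control duplex 1 gave 53 and 69 reads (1.42 and 1.86 CPM), control duplex 2 gave 84 and 100 reads (2.27 and 2.77 CPM), and mock cells had 108 reads (2.70 CPM). The libraries of NFE2L2 duplexes 1 and 2 were above all controls, whereas that of duplex 3 lay between the values of control duplex 2. The log2 fold change was the largest of the 9, 0.65, with a wide 95% interval of 0.08 to 1.22 and an edgeR adjusted p of 0.15. It depended on the control duplex, with 0.98 against duplex 1 alone (adjusted p = 0.139) and 0.37 against duplex 2 alone (adjusted p = 0.596), and it was 0.41 without NFE2L2 duplex 2.

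**Figure D3:**
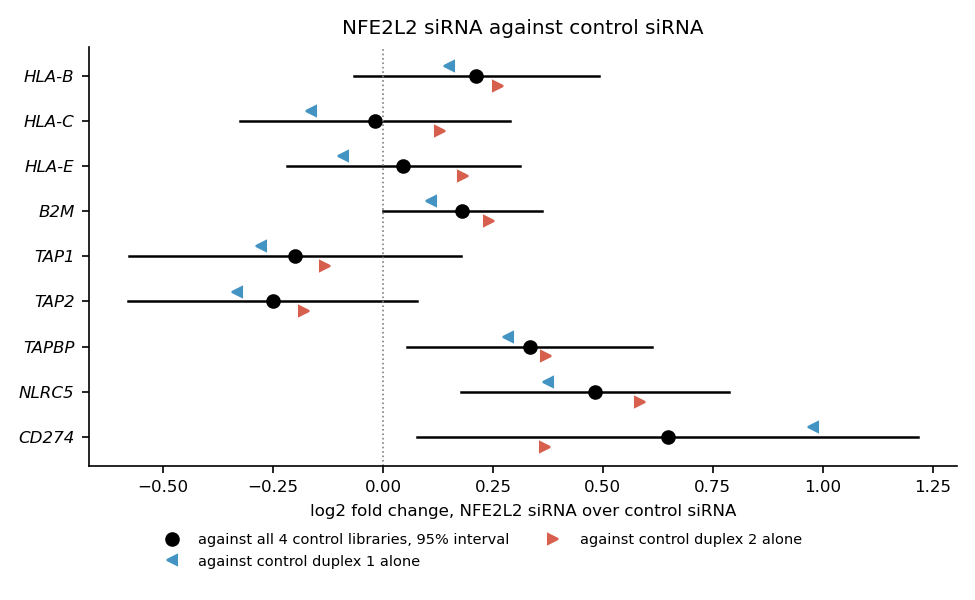
Log2 fold change of NFE2L2 siRNA over control siRNA for the 9 genes, with its 95% interval against all 4 control libraries (black) and the values against each control duplex alone (triangles). The intervals of TAPBP, NLRC5 and CD274 lie above 0 before adjustment and those of the other 6 genes include 0; CD274 has its triangles farthest apart, at 0.98 and 0.37.

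Differences between the control duplexes show how far such values move without a duplex against NFE2L2. In a fit with 3 groups, 0 of the 9 genes and 0.00% of all tested genes differed between the control duplexes at 0.01 in edgeR, with 7.26% of all genes and 0 of the 9 at an unadjusted p under 0.05. Over the 4 control libraries alone, 3.28% of the genes passed 0.01 and 10.1% passed 0.05, and of the 9 genes HLA-E passed 0.05 (log2 −0.26, adjusted p = 0.0295). Duplex 2 was lower than duplex 1 for 8 of the 9 genes, by 0.08 for TAPBP to 0.29 for HLA-C on the log2 scale in the 3-group fit. The ninth gene was CD274, which was higher with duplex 2 by 0.62 on that scale (95% interval −0.07 to 1.31, edgeR adjusted p = 0.734). For HLA-C, HLA-E and CD274 the gap between the control duplexes was wider than, or nearly as wide as, the gap between NFE2L2 siRNA and all controls. The mock library, which holds no duplex, lay within the control range for 5 genes, below it for HLA-B, HLA-C, B2M and TAPBP, and above it for none.

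The NFE2L2 duplexes differed among themselves too. Duplex 3 gave the highest value of the 3 for HLA-B, HLA-C, HLA-E, B2M, TAPBP and NLRC5, and duplex 1 the lowest for 6 genes, the first 4 of these together with TAP1 and TAPBP. The ratio of the highest to the lowest NFE2L2 siRNA value was 1.71 for TAP1 and 1.73 for CD274, and 1.45 for both TAP2 and TAPBP. Among the control libraries the same ratio was 1.23 for TAP1, 1.95 for CD274, 1.12 for TAP2 and 1.14 for TAPBP. Since each NFE2L2 duplex was transfected once, the effect of a duplex and that of a transfection cannot be told apart. Nothing in the labels ties the transfections to separate cultures, so the p-values measure the spread between these libraries, and both libraries of a control duplex share that duplex.

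Genes that work beside the 9 were then read from the same fit, by list. Peptide trimming and loading (ERAP1, ERAP2, TAPBPL, CALR, CANX and PDIA3) had 0 of 6 genes past 0.05, with a median log2 fold change of 0.10. The inducible proteasome subunits and the PA28 activator (PSMB8, PSMB9, PSMB10, PSME1 and PSME2) had 0 of 5, with a median of 0.16. Other class I and class I-like heavy chains had 0 of 4 tested, with log2 fold changes of −0.07 to 0.07, and HLA-G had 0 reads in all 8 libraries.

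Of 10 genes of interferon-gamma signalling 0 passed 0.05, and their median log2 fold change was 0.16, beside 0.01 over all genes. IRF1, a transcription factor that this cytokine induces, had 36.7 ± 3.17 CPM (SD, n = 3) against 35.7 ± 3.75 (SD, n = 4), a log2 fold change of 0.04 (edgeR adjusted p = 0.875). Among 7 tested promoter factors, which bind the conserved module of class I and class II promoters, none passed 0.05. The lowest was RFX5, a subunit of the RFX complex with which NLRC5 works, at 64.2 ± 10.1 CPM (SD, n = 3) against 84.6 ± 9.21 (SD, n = 4) and a log2 fold change of −0.40 (edgeR adjusted p = 0.0883). Of 5 NF-kB genes, NFKB2, the gene of the p100 precursor, passed 0.05 but not 0.01 in edgeR (log2 fold change −0.64, adjusted p = 0.0377). It had 44.999 ± 5.68 CPM (SD, n = 3) against 70.1 ± 13.3 (SD, n = 4). Its adjusted p was 0.00481 in DESeq2, and 0.217 in edgeR against control duplex 1 alone.

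Class II genes were nearly silent. HLA-DRA, HLA-DRB1, HLA-DQA1 and HLA-DQB1 had 0 reads in all 8 libraries, which allows up to 3 reads, or 0.0844 CPM in the shallowest library, and HLA-DPA1, HLA-DPB1 and CD74 had at most 5 reads in any library. Only the peptide editor subunits HLA-DMA and HLA-DMB had enough reads, with log2 fold changes of 0.50 (edgeR adjusted p = 0.235) and 1.02 (edgeR adjusted p = 0.0707). Neither passed 0.05.

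Interferon-stimulated genes had a median log2 fold change of 0.41 over 11 tested genes. ISG15, a ubiquitin-like modifier, had 6.40 ± 1.00 CPM (SD, n = 3) against 4.065 ± 0.70 (SD, n = 4) and a log2 fold change of 0.65 (edgeR adjusted p = 0.0459). IFIT2, an RNA-binding antiviral protein, had 4.602 ± 0.59 against 2.98 ± 0.415 CPM and a log2 fold change of 0.63 (edgeR adjusted p = 0.0426). RIGI, a sensor of short double-stranded RNA, reached 0.48 (edgeR adjusted p = 0.0266), and is named here after its value was seen. These 3 genes passed 0.05, none of the list passed 0.01, and MX1, OAS1 and IFIT3 passed neither (log2 fold changes of 1.06, −0.18 and 0.00).

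Other ligands of immune checkpoints gave 3 of 10 tested genes past 0.05 in edgeR, all higher, and none past 0.01. Over all tested genes 4.63% were higher past 0.05. NECTIN2, a ligand of TIGIT and PVRIG, had 144, 180 and 172 CPM with NFE2L2 siRNA and 107 to 123 CPM in the control libraries, and the log2 fold change was 0.55 (standard error 0.10, edgeR adjusted p = 0.0115). VTCN1, which encodes B7-H4, reached 1.42 on the log2 scale (standard error 0.36, edgeR adjusted p = 0.0405), from only 23 to 51 reads against 10 to 20. DESeq2, which placed 7.38% of all genes past 0.01, did so for NECTIN2 (adjusted p = 0.000264) and VTCN1 (0.0093). Against control duplex 1 alone the edgeR adjusted p was 0.135 for NECTIN2 and 0.209 for VTCN1. CD276, which encodes B7-H3, was at 0.49 (edgeR adjusted p = 0.0335) and is also named after its value was seen. PDCD1LG2, which encodes PD-L2, had 4 to 22 reads per library and a log2 fold change of 0.56 (edgeR adjusted p = 0.46). Genes of PD-L1 protein turnover, among them CMTM6, SPOP and CUL3, had 0 of 6 past 0.05, with log2 fold changes of −0.08 to 0.14. Ligands of activating natural killer cell receptors had 0 of 7 past 0.05 and a median of 0.50, from −0.11 for RAET1E to 0.66 for ULBP1 (edgeR adjusted p = 0.107).

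**Figure D4:**
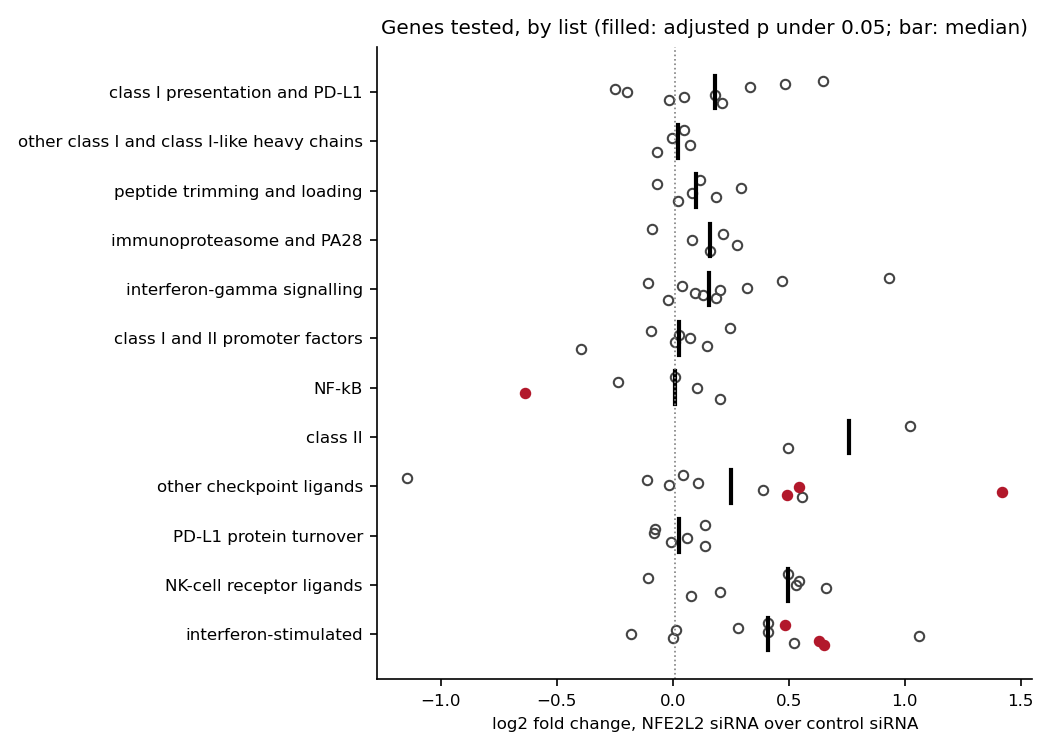
Log2 fold change of NFE2L2 siRNA over control siRNA for the tested genes of each list, 1 circle per gene. Filled circles have an adjusted p under 0.05, bars are list medians and the dotted line is the median over all 17811 tested genes; the 9 genes of class I presentation and PD-L1, in the top row, hold no filled circle.

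Since 6 of the 9 genes lie in the major histocompatibility complex, the other genes from HLA-F to TAPBP were counted as well (GRCh37 chromosome 6 from 29690552 to 33282061). Of 114 tested, PPP1R18 was higher (log2 fold change 0.57, edgeR adjusted p = 0.00803) and HSPA1B, a heat shock protein, lower (−0.92, edgeR adjusted p = 0.00752) past 0.01, and the median was −0.03. Neither gene was on the gene lists used here.

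The genes whose pattern over the 8 libraries was most like that of a member were found by the root mean square difference of centred log2(CPM + 0.5), among 13342 genes with a mean of at least 50 reads. For HLA-B these were SPATA2L (difference 0.0459), MARCHF8, ASB8, SDCBP and RAB11FIP3. For NLRC5 they were ABCC4 (0.0711), PLEKHA5, CD46, UNC13B and TMEM87B, and for CD274 NAT8L (0.097), CDS1, CRK, XXYLT1 and GATSL2. None of the 9 genes appeared among the 5 nearest to HLA-B, NLRC5 or CD274.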

How the data were processed

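Total RNA of 8 A549 libraries was sequenced with strand information. The authors deposited, per gene, the counts of reads without normalization, made with HISAT 0.1.6 and HTSeq 0.6.0 according to the submitters' processing notes (genome hg19). Entries of unassigned classes, 34.4% to 39.7% per library, were left out. Symbols, lengths and GRCh37 positions came from GENCODE v44 and matched 55538 of 60291 identifiers.

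A gene was tested if any of the 7 siRNA libraries gave it 10 reads or more. edgeR 4.0.16 (R 4.3.3) was run with TMM, the two-sided quasi-likelihood F test and a prior count of 0.125, and p-values were adjusted over all 17811 genes by Benjamini-Hochberg, at 0.01. The standard error is the size of the log2 fold change divided by the root of F. The floor of 3 reads covers counting error only. Alternatives were DESeq2 1.42.0, limma-voom (limma 3.58.1), other normalizations, filters, thresholds and control groups, the mock library as a control, HLA-B and HLA-C summed, and each library left out.

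The 9 genes and all lists were chosen with earlier results of these data known. Beside the 9, the naming rule took NFE2L2 and 4 targets, listed genes that passed 0.01 or whose groups did not overlap at an absolute log2 fold change of at least 0.5, and the 5 genes nearest to HLA-B, NLRC5 and CD274. A few listed genes outside this rule are named as examples.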

Additional observations from a re-analysis of the deposited data

How the results depend on the processing

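The number of genes past the threshold was 491, and it became 1314 with DESeq2, 1019 with a filter of 1 read, 772 with the mock library added to the controls, 1456 at a threshold of 0.05, 120 against control duplex 1 alone, 59 against control duplex 2 alone and 78 with both libraries of a control duplex summed. With 1 library left out it ranged from 163 to 915, the lowest without control replicate 2 and the highest without NFE2L2 replicate 2. Several of these fits hold fewer samples, and the cause of the changes was not tested. The number of the 9 genes past the threshold was 0 in each of these fits. Among the values of the 9 genes 171 kept their direction and 9 turned it. The turned values were all for HLA-C and HLA-E, whose values are close to 0. For HLA-C this counts the feature that sums HLA-B and HLA-C. The 171 include unchanged values of the main fit read at the threshold of 0.05, whose direction could not turn. They also include nearly unchanged values of the other genes in the fit that sums HLA-B and HLA-C. HLA-C had 0.019 with library size alone, 0.13 against control duplex 2 alone, 0.0392 with the mock library added, and from −0.116 to 0.068 with 1 library left out. The summed feature of HLA-B and HLA-C had 0.039. HLA-E had −0.091 against control duplex 1 alone and from −0.0485 to 0.13 with 1 library left out. The cause was not tested. For the other named genes 280 values stayed on their side of the threshold, 28 passed it and 32 no longer did. The 28 include unchanged values of the main fit that passed only the looser threshold of 0.05. Scaling by library size alone moved the median of all genes by 0.03 on the log2 scale. CD274 had the fewest reads of the 9 genes, 53 to 165 per library. No paired analysis was possible because a number of an NFE2L2 library names its duplex, and the labels tie no control library to it. Control labels name a duplex and a repeat of it, and the control replicate numbers used here run through these in order.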
